A study of Arabidopsis thaliana with 12 samples.

Results

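CCS, GLDH and GLX2-1 are 3 nuclear genes of Arabidopsis thaliana whose products act in defence against superoxide, in the making of ascorbate and in a protein family that handles methylglyoxal. Each was read by 1 probe that the platform's annotation assigns to that gene alone: CCS (AT1G12520) by probe 347, GLDH (AT3G47930) by probe 592 and GLX2-1 (AT2G43430) by probe 1753. They are 3 of the 692 single-gene probes on an array of 3439 probes. The genes were picked by name with their difference between the groups already known, so that difference is described here without a test.

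The DCMU group, 6 array columns, came from wild-type plants (ecotype C24) kept in light that favours photosystem I (PSI light) and given DCMU. The PSI light group, also 6 columns, came from the same wild type in that light without the inhibitor. Both groups therefore shared genotype and light, and the label difference between them was DCMU alone. Dose, duration, plant age, tissue and the number of plants per sample are not stated in the labels.

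PSI light excites mainly photosystem I, and DCMU stops electrons from leaving photosystem II, so the comparison asks which transcripts differ when the remaining linear electron flow is inhibited. CCS is the chaperone that inserts copper into Cu/Zn superoxide dismutases, the enzymes that convert superoxide to hydrogen peroxide in cytosol and chloroplast. GLDH, L-galactono-1,4-lactone dehydrogenase, sits in the inner mitochondrial membrane, catalyses the last step of ascorbate synthesis, and is also needed to assemble mitochondrial complex I. Ascorbate in turn feeds the peroxidases that remove hydrogen peroxide. GLX2-1 is a mitochondrial protein of the glyoxalase II family. Glyoxalases I and II together convert methylglyoxal, a toxic by-product of sugar breakdown, to D-lactate by way of a glutathione adduct, although the purified Arabidopsis GLX2-1 protein is known to lack typical glyoxalase II activity.

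The deposited values were relative intensities with the brightest probe of each column at 100. Column medians were 0.386 to 0.504 in PSI light with DCMU and 0.542 to 0.584 in PSI light, so the columns were quantile normalised, held at or above a floor of -3.19 on the log2 scale (the 5th percentile of positive intensities) and converted to log2. Columns numbered 1 and 2, 3 and 4, and 5 and 6 of a group resembled each other far more than other columns did, and each such duplicate pair was counted once, which gives n = 3 per group. This pairing comes from the values and not from the labels, which also do not tell whether different samples are different plants or cultures. The spread and the p-values may therefore reflect technical variation only. The RNA held transcripts of green tissue at levels that varied between genes. There were 6 green tissue genes with a probe of their own. The photosystem genes PSBW, LHCB1.5, PSAN and PSB27 ranked at the 93.5 percentile or higher in every column. PSBY ranked at 60.3 or higher, and PRK of the Calvin cycle at 37.0 or higher. The mean rank of PRK was 78.1 with DCMU and 43.0 in PSI light, and that of PSBY was 84.1 and 70.2. After quantile normalisation the summed linear intensity of the 6 genes was 38.2 to 41.5 with DCMU and 35.4 to 45.9 in PSI light, so the groups overlapped. PSBW and LHCB1.5, the brightest of the 6, weigh most in that sum, and dimmer genes such as PRK and PSBY weigh little. In mean log2 level, 4 genes were higher and 2 lower with DCMU. In the deposited values the sum was 39.8 to 49.0 with DCMU and 32.9 to 40.3 in PSI light. The part of these levels in the results below was not tested. None of the 8 root or non-green genes listed had a probe of its own. In such bulk RNA, fewer cells of a type and less RNA per cell cannot be told apart.

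The transcript of CCS stood lower with DCMU. Its log2 levels in columns 1 to 6 were -2.29, -2.36, -2.14, -1.95, -1.93 and -2.31 in PSI light with DCMU, against -1.84, -1.90, -1.63, -1.55, -1.83 and -1.85 in PSI light. The groups did not overlap, but the margin was narrow: the highest DCMU column and the lowest PSI light column were 0.03 apart. CCS averaged -2.16 ± 0.14 with DCMU and -1.77 ± 0.16 in PSI light (SD, n = 3 each), a log2 difference of -0.40 (SE 0.12), which is 1.32-fold lower. In the deposited values before any scaling, CCS lay between 0.159 and 0.257 with DCMU and between 0.265 and 0.402 in PSI light. With columns scaled to equal totals, centred on their medians or normalised by cyclic loess, the 2 groups of CCS columns overlapped. The difference kept its sign under those scalings and was -0.20 with median centring. CCS thus had the smallest difference of the 3 genes, and one whose separation of the groups depended on the scaling.

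GLDH also stood lower with DCMU. Its log2 levels in columns 1 to 6 were -1.29, -1.34, -1.71, -1.53, -0.87 and -1.18 in PSI light with DCMU, against -0.63, -0.68, -0.61, -0.78, -0.69 and -0.47 in PSI light. No DCMU column reached the lowest PSI light column, and the nearest was DCMU column 5, 0.09 below it. GLDH averaged -1.32 ± 0.30 with DCMU and -0.64 ± 0.06 in PSI light (SD, n = 3 each). The log2 difference was -0.68 (SE 0.18), or 1.6-fold lower. The PSI light level was nearly the same in the 3 duplicate pairs, whereas the DCMU level ranged from -1.62 in columns 3 and 4 to -1.02 in columns 5 and 6. In the deposited values, GLDH lay between 0.294 and 0.418 with DCMU and between 0.667 and 0.789 in PSI light. The groups stayed apart for GLDH with no scaling, equal totals, median centring and cyclic loess. With cyclic loess they barely did: the highest DCMU column was at -0.898 and the lowest PSI light column at -0.891.

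GLX2-1 differed in the opposite direction and stood higher with DCMU. Its log2 levels in columns 1 to 6 were -1.04, -1.16, -1.12, -1.15, -0.63 and -0.53 in PSI light with DCMU, against -1.75, -1.58, -3.03, -3.19, -3.19 and -1.96 in PSI light. Every DCMU column lay above every PSI light column, with 0.42 between the nearest of them. GLX2-1 averaged -0.94 ± 0.31 with DCMU and -2.45 ± 0.73 in PSI light (SD, n = 3 each), a log2 difference of 1.51 (SE 0.46), which is 2.85-fold higher. PSI light columns 4 and 5 stood at the floor, so the level there was no higher than the floor and the fold depends on where the floor was set. With the floor at the 10th percentile the difference was 1.24. With an offset of 0.529 added to the normalised intensities in place of the floor, the difference was 0.55. Such an offset shrinks the differences of all dim probes, also of those never at the floor. In the deposited values, GLX2-1 lay between 0.409 and 0.532 with DCMU and between 0.0735 and 0.360 in PSI light.

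**Figure D1:**
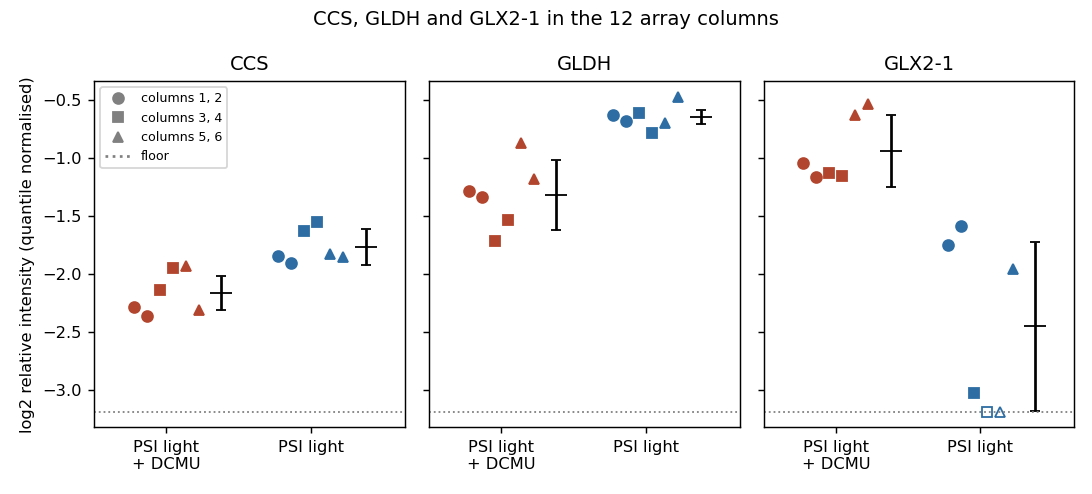
Log2 relative intensity (quantile normalised, y axis) of CCS, GLDH and GLX2-1 in each array column of PSI light with DCMU and of PSI light. Point shapes mark duplicate columns, open points stand at the floor (dotted line), and black bars are means ± SD of 3 duplicate means. CCS and GLDH lie lower with DCMU and GLX2-1 higher, with gaps between the groups of 0.03, 0.09 and 0.42.

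All 3 genes had groups of 6 columns that did not overlap, CCS and GLDH with DCMU below and GLX2-1 with DCMU above. Such separation was common on this array: 43.5% of all probes showed it, 25.0% with DCMU below and 18.5% with DCMU above. Since the genes were chosen on this contrast, nothing is read from that count.

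Ranks within a column do not depend on how a whole column is scaled. CCS ranked at the 19.9 ± 2.5 percentile with DCMU and at 27.8 ± 3.7 in PSI light (SD, n = 3 each), a difference of -7.95 percentile points. GLDH ranked at 39.7 ± 8.6 with DCMU and at 60.9 ± 1.9 in PSI light, a difference of -21.1 points. For GLX2-1 the ranks were 51.2 ± 10.2 with DCMU and 17.9 ± 11.1 in PSI light, a difference of 33.3 points. By this measure GLDH lay below the middle of the array in 5 of 6 DCMU columns and above it in all 6 PSI light columns, and GLX2-1 ranked at 32.2 or lower in all 6 PSI light columns.

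**Figure D2:**
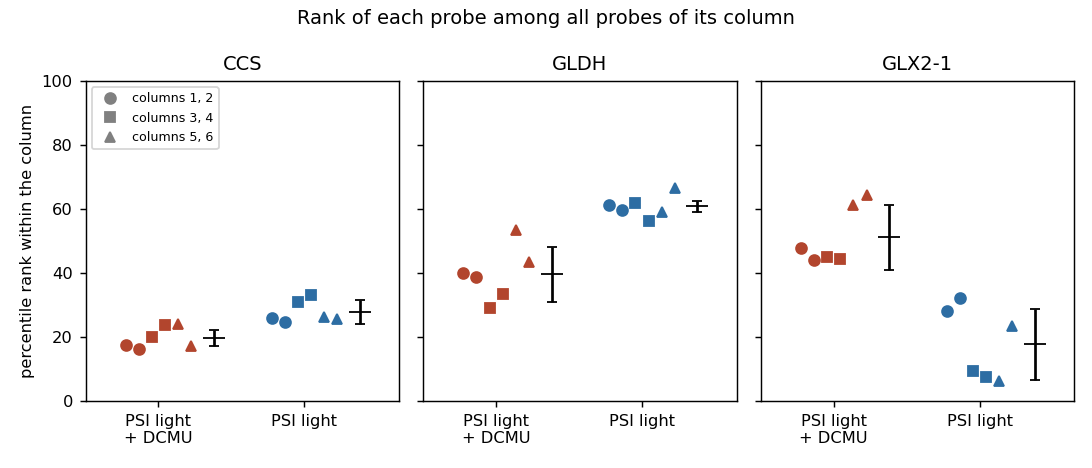
Percentile rank (y axis) of each probe among the 3439 probes of its column, for PSI light with DCMU and PSI light. Shapes mark duplicate columns and black bars are means ± SD of 3 duplicate means. GLX2-1 ranks between 44.1 and 64.5 with DCMU and between 6.47 and 32.2 in PSI light.

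Set against the whole array, the 3 differences were of unequal size. Of the 692 single-gene probes, 31.6% had a lower log2 difference than CCS and 19.7% a lower one than GLDH, while 93.9% had a lower one than GLX2-1. Without regard to sign, 41.8% of these probes differed less than CCS, 61.4% less than GLDH and 92.5% less than GLX2-1. CCS was therefore near the middle of the array in the size of its difference and GLX2-1 near the upper end. The median log2 difference of all probes was -0.06, and it was -0.32 with no scaling and -0.23 with equal totals. Relative to that median, CCS stood at -0.34 after quantile normalisation and -0.23 with no scaling, GLDH at -0.62 and -0.68, and GLX2-1 at 1.57 in both.

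**Figure D3:**
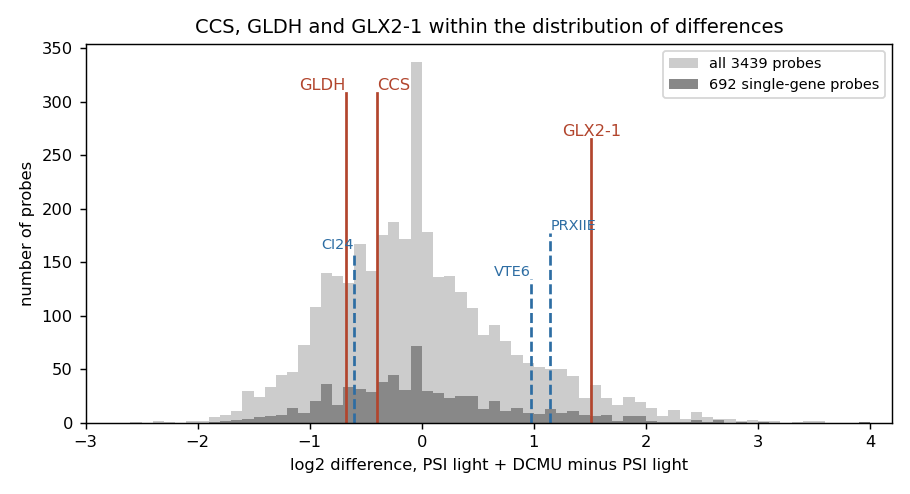
Number of probes (y axis) by log2 difference, PSI light with DCMU minus PSI light (x axis), for all 3439 probes and for the 692 single-gene probes. Solid lines mark CCS at -0.40, GLDH at -0.68 and GLX2-1 at 1.51, and dashed lines mark CI24, VTE6 and PRXIIE, the other genes of the function lists with a probe of their own.

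The spread between duplicate pairs also differed among the 3 genes. In PSI light the SD of GLX2-1, 0.73, was larger than that of 97.6% of the 546 single-gene probes never at the floor, whose median SD was 0.21. GLX2-1 itself stood at the floor in PSI light columns 4 and 5, so it is not one of those probes and its SD depends on the floor. Its duplicate columns 5 and 6 in PSI light differed by 1.23 on the log2 scale, while the other 5 pairs of GLX2-1 columns differed by 0.03 to 0.17. The gap of PSI light columns 5 and 6 and that of columns 3 and 4 depend on the floor. GLDH had the opposite pattern, with an SD in PSI light, 0.06, that was smaller than most (8.06% of those probes had a smaller one) and an SD with DCMU of 0.30, above the median of 0.21. CCS had an SD of 0.14 with DCMU and of 0.16 in PSI light, both below the medians. The level of GLX2-1 in PSI light thus had the largest SD of the 6 group levels, and it was -1.67 in columns 1 and 2, -3.11 in columns 3 and 4 and -2.58 in columns 5 and 6.

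Leaving out any 1 duplicate pair kept the sign of each difference. CCS then ranged from -0.47 to -0.31, GLDH from -0.82 to -0.53 and GLX2-1 from 1.19 to 1.87. The lowest value of GLX2-1 came without PSI light columns 3 and 4, and the highest without PSI light columns 1 and 2.

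The differences of probes close to the 3 genes in the array's numbering were examined as well. Among the 100 probes nearest in number to CCS the median log2 difference was -0.27, and 43 of them were lower than CCS. The 100 neighbours of GLDH had a median of -0.26, and 28 were lower than GLDH. Both genes thus lay among probes that were mostly lower with DCMU. Around GLX2-1 the neighbours were also mostly lower, 68 of 100 with a median of -0.48, and 2 of them exceeded the difference of GLX2-1. Over all probes the median was -0.06. Of all probes, 32.4% were lower than CCS, 20.6% lower than GLDH and 94.5% lower than GLX2-1. After subtraction of a running median over neighbouring probes in each column, the difference was -0.08 for CCS, -0.34 for GLDH and 1.93 for GLX2-1. For CCS little of the difference was left after that correction, for GLDH it was -0.34 in place of -0.68, and for GLX2-1 it was larger. How probe numbers map to places on the array is not known here.

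**Figure D4:**
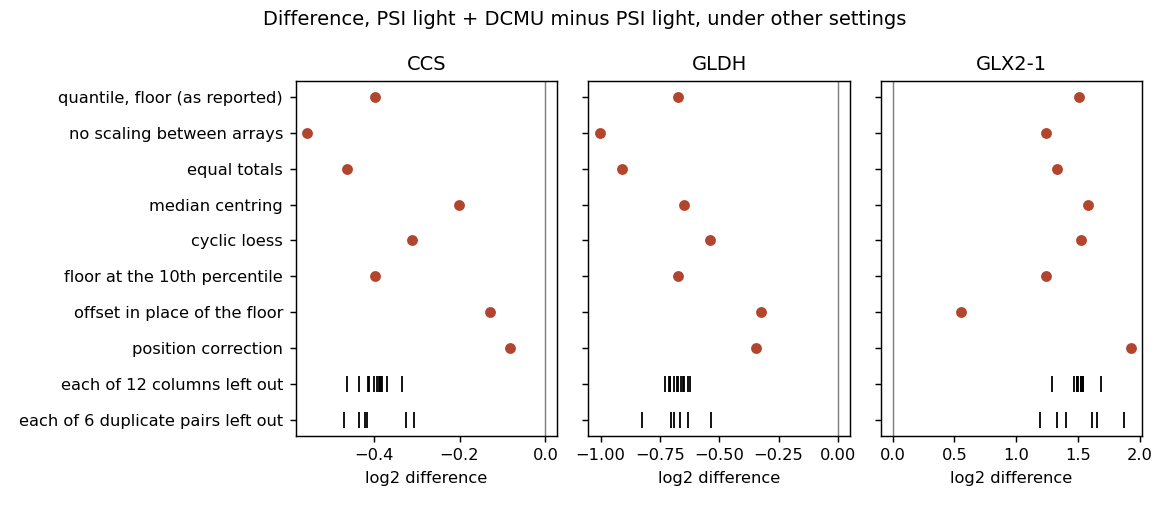
Log2 difference, PSI light with DCMU minus PSI light (x axis), of CCS, GLDH and GLX2-1 under each setting (rows). Points are single settings, and ticks are the values with 1 of 12 columns or 1 of 6 duplicate pairs left out. All values of CCS and GLDH lie below 0 and all of GLX2-1 above, and CCS comes nearest to 0 at -0.08 after the position correction.

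The rest of these pathways was sparsely covered. Of 148 genes in 10 function lists (superoxide dismutation, copper delivery, ascorbate synthesis, the ascorbate-glutathione cycle, glyoxalases, peroxide removal, glutaredoxins, tocopherol synthesis, mitochondrial complex I and responses to reactive oxygen species), 6 had a probe of their own. These were the 3 genes above and VTE6, PRXIIE and CI24. A further 8 genes were represented on probes shared with other genes and are not named, and the remaining genes were not analysed here. CCS, GLDH and GLX2-1 were thus each the single gene of its list with its own probe, and neither the superoxide dismutases that CCS serves nor the other enzymes of ascorbate synthesis could be set beside them.

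Of the 3 other genes, 2 rose and 1 did not pass in limma's model over duplicate means with Benjamini-Hochberg adjustment over all probes, in which 43.1% of all probes passed at 0.05, 18.1% higher and 25.0% lower with DCMU. PRXIIE (AT3G52960), for a plastid peroxiredoxin that reduces peroxides, lay between 0.38 and 0.52 with DCMU and between -1.29 and -0.43 in PSI light, and rose by 1.15 (SE 0.20, limma adjusted p = 0.0106). VTE6 (AT1G78620), for a phytyl phosphate kinase of the pathway to the antioxidant tocopherol, lay between -0.91 and -0.05 with DCMU and between -1.93 and -1.09 in PSI light. For both PRXIIE and VTE6 all 6 DCMU columns lay above all 6 PSI light columns, as they did for 18.5% of all probes. VTE6 rose by 0.98 (SE 0.29, limma adjusted p = 0.0494). That call was marginal: VTE6 passed in 15 of 29 alternative settings, and it did not pass without any 1 of the 6 duplicate pairs (limma adjusted p = 0.0519 to 0.116). PRXIIE passed in 29 of 30 settings and was lost with no scaling (limma adjusted p = 0.0521).

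CI24 (AT4G02580), for a matrix-arm subunit of the mitochondrial complex I that GLDH helps to assemble, stood at the floor in all 6 DCMU columns and between -3.15 and -1.90 in PSI light. Its log2 difference of -0.61 (SE 0.28, limma adjusted p = 0.149) did not pass, and both its size and its error depend on the floor. The difference of CI24 was -0.29 without PSI light columns 5 and 6, where it was highest, -0.21 with the floor at the 10th percentile, -0.24 with the offset in place of the floor and -0.12 after the position correction. It passed in 3 of 29 other settings, namely with the 12 columns taken as separate samples (limma adjusted p = 0.0189), with duplicates as a random block (limma adjusted p = 0.0475) and with no scaling (limma adjusted p = 0.0445).

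The genes nearest in pattern were sought among the other 544 single-gene probes never at the floor. Likeness was the root-mean-square difference of log2 levels over the 6 duplicate means, each probe centred on its own mean. Nearest to CCS were AT3G54550 at 0.06, IYO (AT4G38440), for a protein that promotes transcript elongation by RNA polymerase II, at 0.06, and AT5G10910 at 0.07, against a median of 0.37 over all candidates. Nearest to GLDH were AT2G39000 at 0.07, AT4G14050, for a pentatricopeptide repeat protein, at 0.09 and AT5G39410 at 0.10, against a median of 0.43. Their log2 differences were -0.68, -0.78 and -0.63, close to that of GLDH, as the measure requires. Nearest to GLX2-1 were AT1G30700, for a protein of the berberine bridge enzyme type, at 0.22, AT1G31790 at 0.29 and MAMI (AT5G54110) at 0.31. The median for GLX2-1 was 0.99. The log2 differences of these 3 probes were 1.20, 1.56 and 1.43. Distances on this measure grow with the size of a gene's own differences, so they are not comparable between the 3 genes. Probes at the floor in any column were left out, although GLX2-1 itself stood at the floor in 2 PSI light columns. CCS and GLDH differed from each other by 0.28 on this measure, and from GLX2-1 by 1.09 and 1.17. All these points share the same 12 columns and their scaling.

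**Figure D5:**
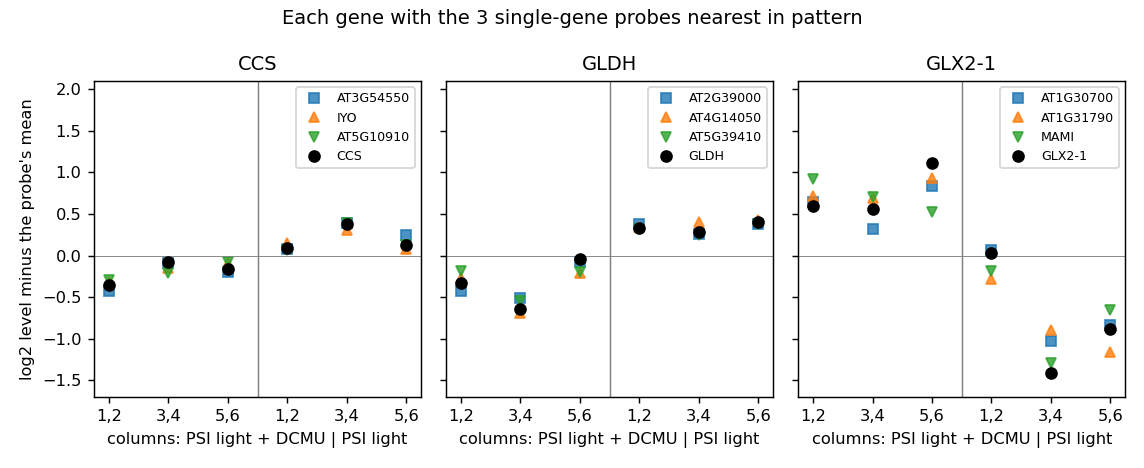
Log2 level minus the probe's own mean (y axis) over the 6 duplicate means (x axis, PSI light with DCMU left of the line and PSI light right of it) for each gene (black) and the 3 single-gene probes nearest to it in pattern. The probes nearest to CCS lie within 0.07 root-mean-square of it and those nearest to GLX2-1 within 0.31.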

How the data were processed

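Total RNA was measured in 12 array columns. The authors deposited 1 linear relative intensity per probe and column; background correction and image analysis are not stated there. Arrays have no read depth, and their number limits the precision. Here intensities were quantile normalised, floored at the 5th percentile of positive values (0.110) and turned to log2. Consecutive odd and even columns of a group (1 with 2, 3 with 4, 5 with 6) were averaged as duplicates, since their Spearman correlations (0.976 to 0.991) exceeded those of all other pairs within groups (0.921 to 0.960). limma 3.58.1 (R 4.3.3) was fitted to the 6 duplicate means over all 3439 probes, with a threshold of 0.05. The code was also run on simulated data in which few probes differed and the groups shared no deviations. That run does not tell how well the p-values hold here, where 43.1% of probes passed. SEs of CCS, GLDH and GLX2-1 come from the group SDs, those of other genes from limma. Probes were named through the platform annotation and RefSeq's gene table: 692 had 1 gene (690 matched), 870 several and 1877 none given. No sequences are shown. The genes, lists, tests and alternatives were chosen with earlier results of these data known. The text names the 3 genes, every function-list gene with its own probe, and for each of the 3 genes the 3 probes nearest in pattern. Figures were drawn with matplotlib 3.10.9 in Python 3.11.15.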

Additional observations from a re-analysis of the deposited data

Results flagged for a closer look

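Of 34 groups of 6 columns examined for a single column far from the others (the genes named with values, the column medians and the column totals, each in both groups), none passed Dixon's 95% critical value for the gap over the range. CI24 with DCMU, at the floor in all 6 columns, had no range and could not have passed. Chance alone gives about 1 such column in 20 groups of independent columns. The measure misses a duplicate pair that stands apart as a pair, and it did not mark GLX2-1 in PSI light, where columns 3, 4 and 5 were low.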

How the results depend on the processing

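CCS, GLDH and GLX2-1 kept the sign of their differences in every setting run. Values moved by more than the SD between duplicate means as follows, and the cause was not tested. With no scaling CCS stood at -0.55 and GLDH at -1.0, with equal totals GLDH at -0.91, and with median centring CCS at -0.20. With the offset in place of the floor the differences were -0.13 for CCS, -0.33 for GLDH and 0.55 for GLX2-1. An offset shrinks differences of dim probes, and for GLX2-1 this setting also takes away the floor in PSI light. The parts of these changes were not separated. After the position correction CCS stood at -0.083 and GLDH at -0.34. Without 1 column CCS ranged from -0.46 to -0.33, GLDH from -0.73 to -0.62 and GLX2-1 from 1.29 to 1.69. Of all probes, 1483 passed, 57.9% of them lower, against 73.4% lower with no scaling, 69.1% with equal totals and 47.9% after the position correction. With the dimmer probes left out 798 passed, with fewer probes tested. Of the 3 other function-list genes 2 passed, against 3 with the 12 columns as separate samples or with duplicates as a random block, and 1 with no scaling, equal totals or the floor at the 10th percentile. Without 1 column or 1 duplicate pair 1 to 2 passed. With the dimmer probes left out, CI24 and VTE6 were not in the fit. Over all probes, 1151 to 1487 passed without 1 column or pair. With the replicate block 1394 probes passed. Same-numbered duplicate means of the 2 groups deviated together at correlations of 0.0989 to 0.306, the lowest of them under 0.1. All 3 DCMU means correlated best with their own number. Samples were not treated as paired, although these values do not show that they were unpaired. The SEs and the main p-values take no account of pairing. Dim levels such as those of CI24 and of GLX2-1 in PSI light are limited by the floor.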
